A study of Homo sapiens with 12 samples.

Results

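Brakes on growth signalling and their close relatives were followed in MNNG/HOS cells (HOS-MNNG in the labels), an established human osteosarcoma line obtained by chemical transformation of HOS cells. The 10 genes are the sestrins *SESN1*, *SESN2* and *SESN3*, the REDD1 gene *DDIT4* and its paralog *DDIT4L*, the mTOR inhibitor gene *DEPTOR*, the translation repressor gene *EIF4EBP1*, and the Tribbles genes *TRIB1*, *TRIB2* and *TRIB3*. They were chosen by symbol from 43236 gene entries, and all 10 were found. Of these, 9 had enough counts to be tested, as did 15979 genes in all, and *DDIT4L* had not. The cells received DMSO, the solvent control, or 300 nM NXP800, an orally available small molecule, for 6 h or 24 h. Each of the 4 groups (DMSO 6 h, NXP800 6 h, DMSO 24 h, NXP800 24 h) has 3 polyA RNA libraries. All groups are the same line, with no genetic change between them, so the results describe 1 line at 1 dose. In such bulk RNA, fewer cells with a transcript and less transcript per cell cannot be told apart.

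mTORC1 is the kinase complex that couples amino acids, growth factors and energy to protein synthesis. It is recruited to lysosomes by the Rag GTPases and switched on there by RHEB. Sestrins restrain the amino acid branch by binding GATOR2, whereas REDD1 acts through the TSC complex, the inhibitor of RHEB. DEPTOR binds mTOR itself, and 4E-BP1, the product of *EIF4EBP1*, is a substrate of mTORC1 that holds the cap-binding factor eIF4E when it is not phosphorylated. Tribbles proteins are pseudokinases that serve as scaffolds, among others for the ubiquitin ligase COP1 and its substrates of the C/EBP family. *SESN2*, *DDIT4* and *TRIB3* are textbook targets of ATF4, the transcription factor of the integrated stress response (ISR).

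Gene counts lay between 30810614 and 31947656 per library, so precision was set by the spread between libraries for all but the low genes. Reads on no annotated gene made up 6.66 to 8.14% of the 6 h libraries and 2.73 to 3.67% of the 24 h libraries. Comparisons were made within a time. Of 8 markers of the osteoblast and mesenchymal lineage, *RUNX2*, *COL1A1*, *SPARC*, *VIM* and *TWIST1* had a median of at least 1 CPM (a gene's count scaled to library size, corrected by TMM), whereas *COL1A2*, *ALPL* and *SP7* never exceeded 12, 7 and 1 counts. The summed level of the 8 was 5058 to 5248 CPM in DMSO 6 h, 4214 to 4353 CPM in NXP800 6 h, 5946 to 6796 CPM in DMSO 24 h and 3812 to 4648 CPM in NXP800 24 h, lower with NXP800 in each library at both times. Most of that sum was *VIM*, at 3338 to 5891 CPM over all libraries. Of 8 markers of other cell types, *EPCAM*, *CD68* and *SNAP25* had a median of at least 1 CPM, and *PTPRC* never exceeded 5 counts. The summed level of these 8 was 72.7 to 87.9 CPM in DMSO 6 h, 71.2 to 83.2 CPM in NXP800 6 h, 75.5 to 99.6 CPM in DMSO 24 h and 131 to 165 CPM in NXP800 24 h, with *CD68* alone reaching 154 CPM. The part of either marker list in the results was not tested.

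Across the 10 genes, NXP800 raised 5 and lowered 3 at each time point, and within the sestrin and Tribbles families the paralogs differed. A gene was called at a Benjamini-Hochberg adjusted p below 0.05 in edgeR's quasi-likelihood test. At 6 h *SESN2*, *DDIT4*, *TRIB3*, *TRIB1* and *EIF4EBP1* rose and *TRIB2*, *DEPTOR* and *SESN1* fell. These are 8 of the 9 tested genes, where 52.8% of all tested genes were called (25.0% higher and 27.8% lower). At 24 h the same 5 genes rose and *TRIB2*, *DEPTOR* and *SESN3* fell, against 56.0% of all tested genes called (27.5% higher and 28.6% lower). The median log2 fold change of the 9 genes was 0.73 at 6 h and 0.72 at 24 h, beside -0.046 and -0.0033 over all tested genes. With so many genes called in these libraries, the size of a change tells more than its being called. The libraries of DMSO and NXP800 did not overlap for 9 of 9 genes at 6 h and for 8 of 9 at 24 h, where 62.0% and 59.1% of all tested genes did not overlap.

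**Figure D1:**
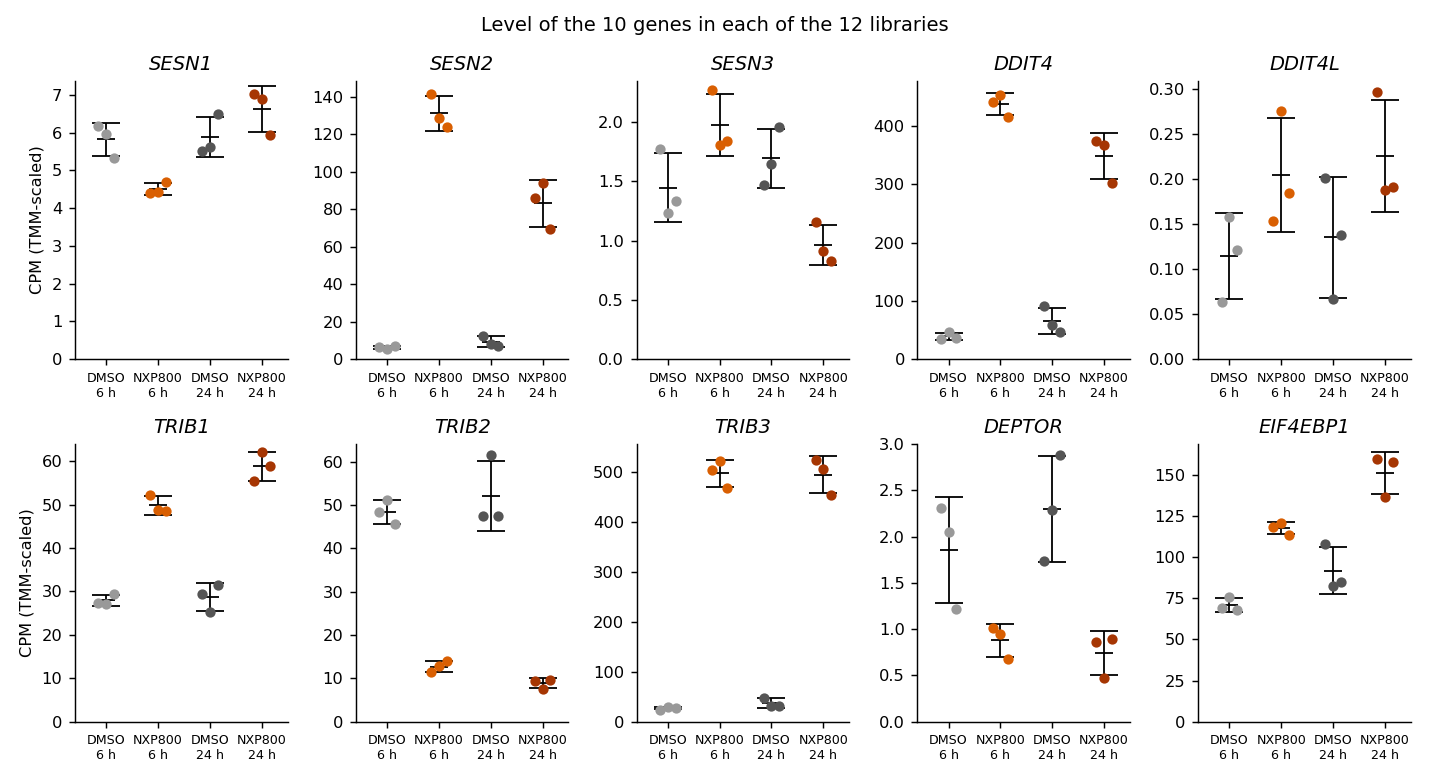
Level of each of the 10 genes (CPM, TMM-scaled, each panel with its own linear axis from 0) in the 4 groups. Points are the 3 libraries of a group, and bars are mean and SD. *SESN2*, *DDIT4* and *TRIB3* stand far above their DMSO libraries at both times, *TRIB2* and *DEPTOR* stand below theirs, and *DDIT4L* stays under 0.3 CPM throughout.

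*SESN2* encodes the stress-inducible leucine sensor of the family and lies on chromosome 1 (28259518 to 28282491, plus strand, RefSeq on GRCh38.p14). Its RNA was 6.40, 5.27 and 6.96 CPM in the DMSO 6 h libraries and 142, 128 and 124 CPM in the NXP800 6 h libraries. The 24 h levels were 12.4, 8.14 and 6.80 CPM in DMSO and 86.1, 94.1 and 69.4 CPM in NXP800. The groups were far apart at both times, and DMSO 24 h replicate 1 was the highest control. NXP800 raised it by 4.40 on the log2 scale at 6 h (standard error 0.17, adjusted p = 3.49e-11 from edgeR), a 21.1-fold rise, which no other of the 10 genes exceeded. At 24 h it was 3.19 (standard error 0.17, adjusted p = 3.10e-10), or 9.10-fold. The response at 24 h was lower than that at 6 h by a log2 difference of -1.21 (standard error 0.23, adjusted p = 0.00131). Without DMSO 24 h replicate 1 the 24 h value was 3.47 and the difference -0.92 (adjusted p = 0.00196).

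*SESN1*, which also binds GATOR2, lies on chromosome 6 (108984309 to 109094846, minus strand). It was 6.18, 5.96 and 5.32 CPM in DMSO 6 h and 4.39, 4.44 and 4.70 CPM in NXP800 6 h. Later, at 24 h, *SESN1* stood at 5.52, 5.62 and 6.49 CPM in DMSO and 7.03, 6.90 and 5.93 CPM in NXP800. All 3 NXP800 libraries lay below the DMSO libraries at 6 h, whereas the groups overlapped at 24 h. *SESN1* fell by 0.37 on the log2 scale at 6 h (standard error 0.12, adjusted p = 0.0178). This call was lost without DMSO 6 h replicate 1 (adjusted p = 0.0685) or 2 (0.0519) and without NXP800 6 h replicate 1 (0.0551) or 2 (0.0513). At 24 h the log2 difference was 0.17 with a 95% interval of -0.079 to 0.42 (adjusted p = 0.229). The responses differed between the times by 0.54 (standard error 0.17, adjusted p = 0.0278), and this call too was lost without replicate 1 or 2 of DMSO 6 h, NXP800 6 h or DMSO 24 h, or without NXP800 24 h replicate 1 (adjusted p between 0.0577 and 0.0700). Of its exons, 4.99% by length overlap another gene on the opposite strand.

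*SESN3*, the sestrin linked to FOXO factors, lies on chromosome 11 (95165513 to 95232475, minus strand) and was the lowest of the family, with 26 to 74 counts per library. It was 1.77, 1.23 and 1.34 CPM in DMSO 6 h and 2.27, 1.81 and 1.84 CPM in NXP800 6 h. The 24 h libraries gave 1.47, 1.65 and 1.96 CPM in DMSO and 1.16, 0.909 and 0.830 CPM in NXP800. The NXP800 libraries thus lay above the controls at 6 h by a narrow gap and below them at 24 h. At 6 h the log2 difference of 0.45 (standard error 0.20, 95% interval 0.014 to 0.88) did not pass adjustment (adjusted p = 0.0776). It passed with the replicate number as a block (0.45, adjusted p = 0.0406) and without DMSO 6 h replicate 1 (0.62, adjusted p = 0.0356). At 24 h *SESN3* fell by 0.81 on the log2 scale (standard error 0.22, adjusted p = 0.00536). The change between the times was -1.26 (standard error 0.30, adjusted p = 0.00618).

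Per length, the sestrin transcripts of DMSO cells were a mixture, and those of NXP800-treated cells were almost wholly *SESN2*. RPKM here are TMM-scaled CPM per kilobase of the gene's merged exons. In DMSO 6 h *SESN2* made up 65.5% ± 4.18 of the summed sestrin RPKM, *SESN1* 29.5% ± 3.93 and *SESN3* 5.00% ± 0.758 (SD, n = 3). In NXP800 6 h *SESN2* made up 97.9% ± 0.143, and in NXP800 24 h 96.0% ± 0.319. The family sum went from 2.73 ± 0.237 RPKM in DMSO to 38.7 ± 2.68 RPKM in NXP800 at 6 h, and from 3.60 ± 0.779 to 25.0 ± 3.71 RPKM at 24 h.

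*DDIT4*, the gene of REDD1, lies on chromosome 10 (72273924 to 72276036, plus strand). It was 34.6, 46.3 and 35.9 CPM in DMSO 6 h and 442, 453 and 416 CPM in NXP800 6 h. In the 24 h libraries *DDIT4* measured 91.1, 59.0 and 46.9 CPM in DMSO and 375, 367 and 303 CPM in NXP800. The controls never came near the treated libraries, and DMSO 24 h replicate 1 was again the highest control. *DDIT4* rose 11.2-fold at 6 h (adjusted p = 5.55e-10) and 5.30-fold at 24 h (adjusted p = 1.16e-08), or by 3.49 and 2.41 on the log2 scale with standard errors of 0.19 and 0.18. The response was smaller at 24 h by a log2 difference of -1.08 (standard error 0.24, adjusted p = 0.00379). Without DMSO 24 h replicate 1 the 24 h value was 2.72 and the difference -0.77 (adjusted p = 0.00321). The controls themselves were higher at 24 h than at 6 h by 0.75 on the log2 scale (standard error 0.18, adjusted p = 0.00273), and there time and library set cannot be told apart.

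*DDIT4L*, which encodes REDD2, lies on chromosome 4 (100185870 to 100190468, minus strand) and was barely present. It had 2, 5 and 4 counts in DMSO 6 h, 5, 9 and 6 in NXP800 6 h, 6, 2 and 4 in DMSO 24 h, and 9, 6 and 6 in NXP800 24 h. The summed counts were 11 (exact Poisson 95% interval 5.49 to 19.7) and 20 (12.2 to 30.9) at 6 h and 12 (6.20 to 21.0) and 21 (13 to 32.1) at 24 h, DMSO first. The counts were higher with NXP800 at both times, the intervals cover counting error only, and the difference was not tested. By length, its mean level was 0.0381 RPKM in DMSO 6 h beside 18.4 RPKM for *DDIT4*, so that the REDD transcript of these cells was that of *DDIT4*.

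*DEPTOR*, whose product binds mTOR in both of its complexes, lies on chromosome 8 (119873722 to 120050918, plus strand). It was 2.31, 2.05 and 1.22 CPM in DMSO 6 h and 1.01, 0.948 and 0.675 CPM in NXP800 6 h. After 24 h the levels were 1.74, 2.29 and 2.88 CPM in DMSO and 0.859, 0.470 and 0.893 CPM in NXP800. It was low everywhere, at 15 to 84 counts per library, but the treated libraries lay below the controls at both times. *DEPTOR* fell by 1.07 on the log2 scale at 6 h (standard error 0.29, adjusted p = 0.00557) and fell by 1.63 at 24 h (standard error 0.30, adjusted p = 0.000207). The difference of these responses was -0.56 with a 95% interval of -1.46 to 0.34 (adjusted p = 0.364). By length, 9.59% of its exons overlap DEPTOR-AS1 on the opposite strand, and the strand setting of the counting was not given in the sources used here.

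*EIF4EBP1* lies on chromosome 8 (38030534 to 38060365, plus strand) and had the highest level per length of the 10 genes in DMSO cells (80.5 ± 4.61 RPKM at 6 h and 104 ± 16.2 RPKM at 24 h, SD, n = 3). It was 68.9, 75.5 and 68.1 CPM in DMSO 6 h and 118, 121 and 113 CPM in NXP800 6 h. By 24 h *EIF4EBP1* measured 108, 82.5 and 84.6 CPM in DMSO and 159, 136 and 158 CPM in NXP800. The groups were apart at both times, with DMSO 24 h replicate 1 the highest of the controls. *EIF4EBP1* rose by a log2 fold change of 0.73 at 6 h (standard error 0.092, adjusted p = 6.29e-06) and 0.72 at 24 h (standard error 0.092, adjusted p = 5.80e-06). The difference between the times was -0.012 with a 95% interval of -0.29 to 0.26. Without DMSO 24 h replicate 1 the 24 h value was 0.85.

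*TRIB3*, the Tribbles gene that is induced under ER stress and amino acid shortage and whose product binds AKT, lies on chromosome 20 (380760 to 397559, plus strand). It was 24.5, 29.3 and 28.3 CPM in DMSO 6 h and 503, 521 and 468 CPM in NXP800 6 h. In the 24 h libraries *TRIB3* measured 48.4, 31.6 and 31.9 CPM in DMSO and 524, 506 and 454 CPM in NXP800. The treated libraries held nearly the same level at both times, and DMSO 24 h replicate 1 stood above the other controls. The log2 fold change was 4.18 at 6 h (standard error 0.14, adjusted p = 5.71e-12) and 3.73 at 24 h (standard error 0.14, adjusted p = 1.21e-11), or 18.2-fold and 13.3-fold. The difference of -0.45 (standard error 0.18) did not pass adjustment (adjusted p = 0.0713). It passed with the replicate block (-0.44, adjusted p = 0.00587) and without DMSO 24 h replicate 2 (-0.56, adjusted p = 0.0326) or replicate 3 (-0.56, adjusted p = 0.0353), and without DMSO 24 h replicate 1 it was -0.22 (adjusted p = 0.197).

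*TRIB1*, which brings C/EBPα to COP1, lies on chromosome 8 (125430358 to 125438403, plus strand). It was 27.4, 27.1 and 29.4 CPM in DMSO 6 h and 52.3, 48.7 and 48.5 CPM in NXP800 6 h. The levels at 24 h were 29.3, 25.2 and 31.5 CPM in DMSO and 55.3, 62.1 and 58.9 CPM in NXP800. The controls differed little between the times and the treated libraries lay above all of them. *TRIB1* rose by a log2 fold change of 0.83 at 6 h (standard error 0.081, adjusted p = 3.74e-07) and 1.04 at 24 h (standard error 0.081, adjusted p = 2.39e-08). The difference of 0.20 had a 95% interval of -0.039 to 0.44 (adjusted p = 0.211).

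*TRIB2*, which also acts on C/EBPα, lies on chromosome 2 (12716936 to 12742734, plus strand). It was 48.5, 51.1 and 45.5 CPM in DMSO 6 h and 11.4, 12.8 and 14 CPM in NXP800 6 h. After 24 h *TRIB2* measured 47.5, 61.5 and 47.6 CPM in DMSO and 9.44, 7.49 and 9.64 CPM in NXP800. It was the strongest Tribbles gene by length in DMSO 6 h and the weakest in both NXP800 groups. *TRIB2* fell by 1.92 on the log2 scale at 6 h (standard error 0.12, adjusted p = 2.11e-09) and fell by 2.56 at 24 h (standard error 0.12, adjusted p = 1.24e-10), 3.80-fold and 5.89-fold. The fall was larger at 24 h by a log2 difference of -0.63 (standard error 0.16, adjusted p = 0.00989).

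The composition of the Tribbles family changed as well, from a mixture to mostly *TRIB3*. In DMSO 6 h *TRIB1*, *TRIB2* and *TRIB3* made up 26.5% ± 1.59, 41.2% ± 2.18 and 32.3% ± 1.93 of the summed Tribbles RPKM (SD, n = 3). In NXP800 6 h their shares were 7.33% ± 0.402, 1.69% ± 0.239 and 91.0% ± 0.504, and *TRIB3* held 90.2% ± 0.886 in NXP800 24 h. The family sum went from 25.7 ± 0.985 to 166 ± 8.16 RPKM at 6 h and from 29.8 ± 2.28 to 167 ± 10.8 RPKM at 24 h.

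**Figure D2:**
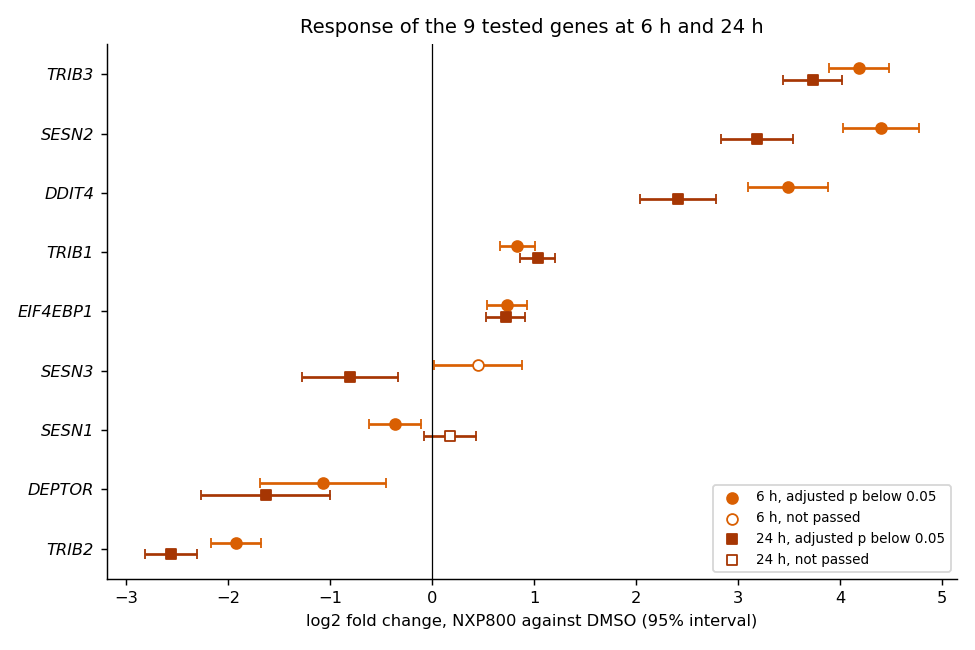
Log2 fold change of NXP800 against DMSO at 6 h (circles) and 24 h (squares) for the 9 tested genes, with 95% intervals from edgeR. Filled symbols passed an adjusted p below 0.05, and open symbols (*SESN3* at 6 h, *SESN1* at 24 h) did not. *SESN2*, *TRIB3* and *DDIT4* lie to the right and *TRIB2* and *DEPTOR* to the left.

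Whether paralogs responded alike was tested on the log2 ratio of their counts within each library, which no scaling can move. NXP800 and DMSO were compared by an exact two-sided permutation test within the time points, over 400 arrangements with a smallest possible p of 0.005, and adjusted over 6 pairs. Within 1 time point 3 libraries against 3 cannot reach 0.05, so those differences carry no p. Replicate numbers pair the libraries of a time point, and neither this test nor the standard errors use that pairing. With signs flipped over the replicate pairs instead, the adjusted p of the called pairs was 0.0375. That is the floor set by the few replicate pairs, so it cannot show whether the pairing weakens the result. The *SESN2*/*SESN1* ratio rose by 4.77 at 6 h and 3.05 at 24 h (mean 3.91, standard error 0.19, exact permutation p = 0.005, adjusted p = 0.006). The *SESN2*/*SESN3* ratio rose by 3.95 and 4.03 (mean 3.99, standard error 0.21, exact permutation p = 0.005, adjusted p = 0.006). The mean change of *SESN1*/*SESN3* was 0.080 (standard error 0.11, exact permutation p = 0.765), but this mean joins -0.82 at 6 h with 0.98 at 24 h, and all 3 treated libraries lay below the controls at the first time and above them at the second.

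Each Tribbles pair was also pulled apart, with an exact permutation p = 0.005 and an adjusted p = 0.006. The *TRIB3*/*TRIB1* ratio rose by 3.35 and 2.72 (mean 3.04, standard error 0.12), the *TRIB1*/*TRIB2* ratio by 2.76 and 3.59 (mean 3.18, standard error 0.15), and the *TRIB3*/*TRIB2* ratio by 6.11 and 6.31 (mean 6.21, standard error 0.18). On the log2 scale the *TRIB3*/*TRIB2* change is the sum of the other Tribbles changes, so it is no separate result. The same holds for *SESN2*/*SESN3* within the sestrins. In counts, *TRIB3* had 0.565 reads for each *TRIB2* read in DMSO 6 h and 39.1 in NXP800 6 h. *DDIT4*/*DDIT4L* was not tested because of the few *DDIT4L* reads.

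**Figure D3:**
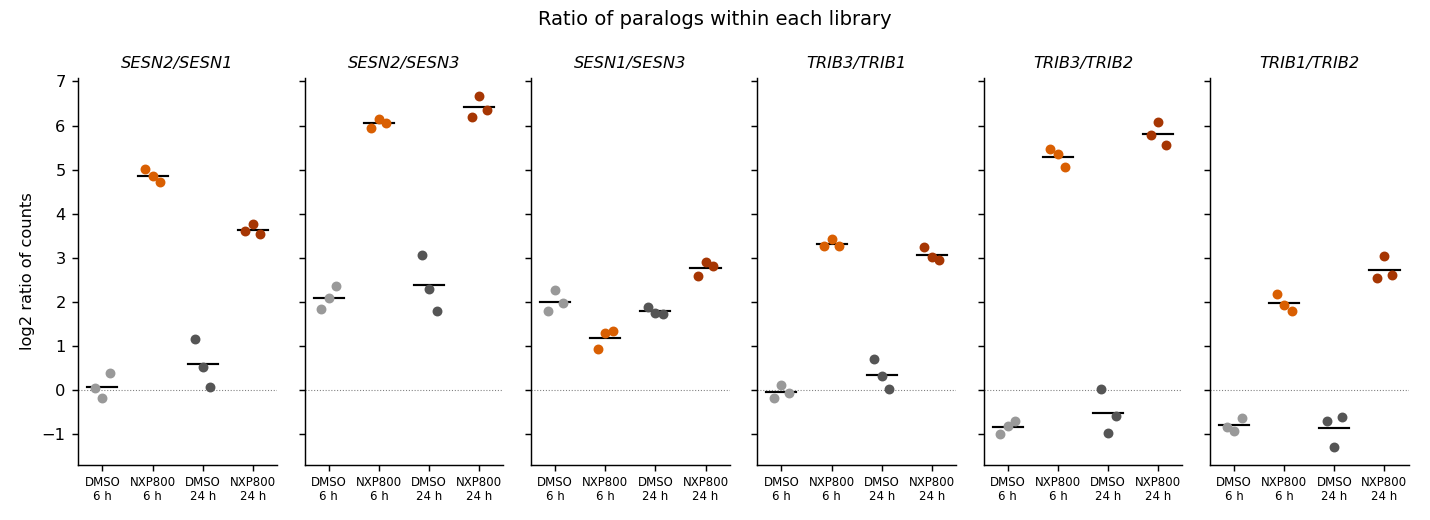
Log2 ratio of the counts of 2 paralogs in each library, for the 3 sestrin pairs and the 3 Tribbles pairs. Points are libraries and black lines are group means. In all pairs but *SESN1*/*SESN3* the NXP800 libraries lie above the DMSO libraries at both times, whereas *SESN1*/*SESN3* is lower with NXP800 at 6 h and higher at 24 h.

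The order of the genes by level per length changed with treatment. In DMSO 6 h it ran from *EIF4EBP1* through *DDIT4* (18.4 ± 3.04 RPKM), *TRIB2* (10.6 ± 0.607), *TRIB3* (8.31 ± 0.780) and *TRIB1* (6.82 ± 0.300) to *SESN2* (1.79 ± 0.249), *SESN1*, *DEPTOR*, *SESN3* and *DDIT4L*, with *SESN1* and *DEPTOR* overlapping in their libraries. In NXP800 6 h it was headed by *DDIT4* (207 ± 8.96 RPKM), *TRIB3* (151 ± 8.21), *EIF4EBP1* (134 ± 4.29) and *SESN2* (37.9 ± 2.68), whose libraries did not overlap. In NXP800 24 h *EIF4EBP1* (172 ± 14.7 RPKM), *DDIT4* (164 ± 18.7) and *TRIB3* (150 ± 11.1) overlapped each with the next.

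The responses of 5 of the 9 genes differed between the time points, where 25.8% of all tested genes did. *SESN2* and *DDIT4* rose less at 24 h, *TRIB2* fell further, *SESN3* went down, and *SESN1*, lower at 6 h, was the only higher value. In the DMSO cells alone 4 of the 9 genes were called between 6 h and 24 h, all higher at 24 h, against 41.6% of all tested genes (21.0% higher). These were *DDIT4*, *SESN2* (0.56, adjusted p = 0.0244), *TRIB3* (0.45, adjusted p = 0.0120) and *EIF4EBP1* (0.37, adjusted p = 0.00415), the genes in which DMSO 24 h replicate 1 was the highest control. Of the 3 DMSO 24 h libraries, replicate 1 was the highest for 4 of the 9 genes (44.4%) and for 34.0% of all tested genes. It was the highest for 16 of 19 tested genes of a list of ATF4 targets (84.2%). This comparison was made after the values were seen, and its cause was not tested.

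The sequence around the start sites was searched for the core of the C/EBP-ATF response element that ATF4 binds (TGATGNAA), for the E-box CACGTG and for the FOXO motif GTAAACA, on both strands. Of the 10 genes, 7 were matched in the RefSeq promoter table (GRCh38.p14). *TRIB1*, *EIF4EBP1* and *DEPTOR* were not matched and were not searched. From 250 bases before to 50 bases after the start, none of the 7 held TGATGNAA (3.62% of 35116 start sites did) or CACGTG (7.26%). For *TRIB3* the start sites used (381295, 381306 and 381343) lie inside the gene, whose RefSeq start is 380760. The short window was therefore not placed at that gene start. *TRIB2* held GTAAACA (3.42%) at -249, shown here with the match in capitals, as the only match in this window:

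TRIB2 at -249, chr2:12716677-12716703, plus strand: tatttcacttTGTTTACctccccggcc

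A window of 2000 bases on each side was added after the first result was known. In it *SESN2* held 2 matches to TGATGNAA, *DDIT4* 4 and *TRIB3* 5, whereas *SESN1*, *SESN3*, *DDIT4L* and *TRIB2* held none. In the same window GTAAACA occurred for *SESN1*, *DDIT4L*, *TRIB2* and *TRIB3* (39.3% of all start sites) and CACGTG for *SESN1* and *DDIT4* (41.7%). Windows with TGATGNAA are common, since 44.7% of all start sites had at least 1 match, 13.6% at least 2 and 3.25% at least 3. The stricter form TGATGCAA, which is a part of TGATGNAA, occurred once each for *SESN2* and *DDIT4* and 3 times for *TRIB3*, where 9.91% of start sites had at least 1 match and 0.0570% at least 3. The genes with TGATGNAA are 3 of the 7 searched, beside 44.7% of all start sites. They are the 3 with the largest rises, but *TRIB1* and *EIF4EBP1*, which also rose, were not searched. This is a description of 7 genes and shows no binding, and a link between motif and response was not tested.

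The 3 strict matches of *TRIB3* lie at -403, -370 and -337 from the start site at 381295, within an untranslated exon of its MANE Select transcript. They are copies of the same 28 bases, shown because they are repeated (capitals mark the motif, here on the opposite strand):

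TRIB3, chr20:380882-380909, chr20:380915-380942 and chr20:380948-380975, plus strand: tagctccggtTTGCATCAcccggaccgg

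The pair of matches of *SESN2* lies at -296, upstream of its transcripts, and at 552, in an intron, both with the motif on the opposite strand:

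SESN2 at -296, chr1:28259212-28259239, plus strand: tgaagtccctTTTCATCAcgcaacccta
SESN2 at 552, chr1:28260060-28260087, plus strand: gggacccgggTTGCATCAactggcagcc

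The 4 matches of *DDIT4* lie upstream of its transcripts, between -1173 and -946, and are shown with the bases between them because they stand close together:

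DDIT4, chr10:72272741-72272995, plus strand: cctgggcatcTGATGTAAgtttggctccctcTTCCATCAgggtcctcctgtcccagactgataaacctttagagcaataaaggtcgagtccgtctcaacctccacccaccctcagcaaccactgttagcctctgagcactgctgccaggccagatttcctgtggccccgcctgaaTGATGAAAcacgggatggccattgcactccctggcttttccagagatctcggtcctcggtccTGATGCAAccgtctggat

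**Figure D4:**
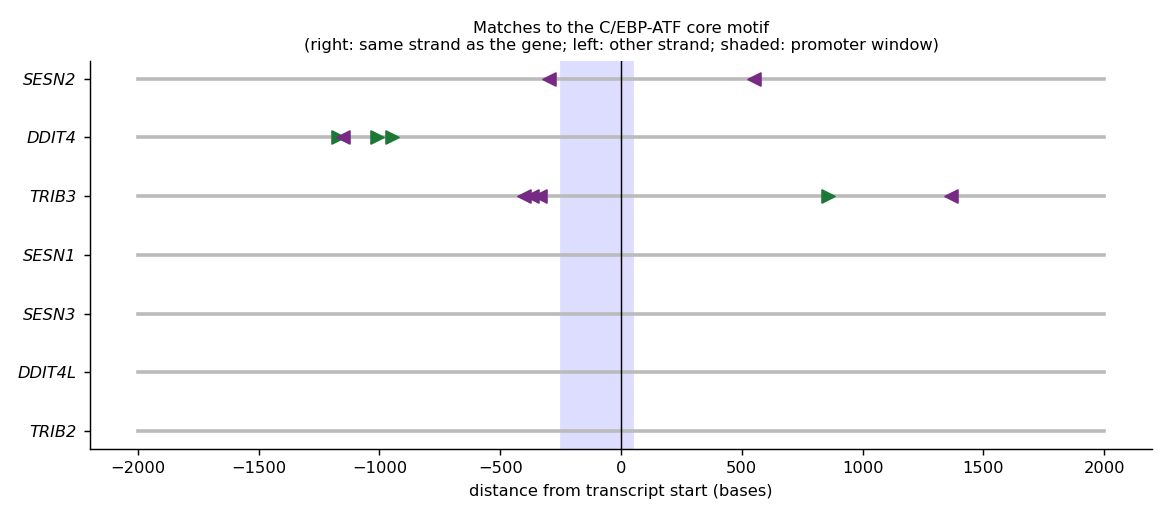
Matches to TGATGNAA within 2000 bases of the start site of 7 genes. The x axis is the distance from the start in bases, arrowheads point along the strand of the match relative to the gene, and the shaded band is the promoter window from -250 to 50. *SESN2*, *DDIT4* and *TRIB3* have 2, 4 and 5 matches, all outside the band, and the other genes none.

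The wider pathway was read from 84 genes in 11 lists, of which 81 could be tested. At 6 h 29 were higher and 20 lower, and at 24 h 26 and 26, with medians of 0.017 and 0.027. The even split at 24 h depended on the scaling, since with library size only it was 33 higher and 17 lower. With TMM scaling 49 of 81 were called at 6 h and 52 at 24 h, beside 52.8% and 56.0% of all tested genes. By direction, 25.0% of all tested genes were higher and 27.8% lower at 6 h, and 27.5% and 28.6% at 24 h. No list was tested as a set. Among the transcription factors known to act on the 10 genes, 7 of 8 were higher at 6 h and 4 of 8 at 24 h, and none was lower. *DDIT3* (CHOP) went at 6 h from 13.1 ± 0.103 to 108 ± 15.3 CPM (a log2 rise of 3.05, adjusted p = 2.38e-11) and later from 9.40 ± 1.05 to 75.6 ± 10.4 CPM (3.01, adjusted p = 2.39e-11). *ATF4* RNA rose by less, 0.66 at 6 h and 0.51 at 24 h. *FOXO3* rose by 1.28 and 1.12, and *NFE2L2*, the gene of the oxidative stress factor NRF2, by 0.93 and 0.59. *NR3C1*, the glucocorticoid receptor gene, rose by 0.92 at 6 h and was -0.017 at 24 h (adjusted p = 0.894), and the responses differed by -0.94 (adjusted p = 0.000138).

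The amino acid branch to which sestrins belong was read from 4 lists. Their counts stand beside 25.0% of all tested genes higher and 27.8% lower at 6 h, and 27.5% and 28.6% at 24 h. Of 5 GATOR2 genes 3 were higher at 6 h, among them *MIOS* (0.79, adjusted p = 1.50e-06), and 1 was higher and 1 lower at 24 h. Of 3 genes of GATOR1, the inhibitor of the Rag GTPases, 1 was lower at 6 h (*NPRL2*, -0.39) and 2 at 24 h (*DEPDC5*, -0.45, and *NPRL3*, -0.44). KICSTOR, which holds GATOR1 at the lysosome, had 3 of 4 genes higher at 6 h and 2 higher and 1 lower at 24 h. Of the 4 amino acid sensors, 2 were higher at 6 h and 1 at 24 h, with *SLC38A9*, the lysosomal arginine sensor, higher at both (0.57 and 0.40). *CASTOR2* was lower at both (-1.12, adjusted p = 0.00526, and -0.75, adjusted p = 0.0263, from edgeR), but its level was low. Its group means were 2.27 and 1.04 CPM at 6 h and 3.52 and 2.10 CPM at 24 h, DMSO first.

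Of 12 Rag and Ragulator genes with their folliculin partners, 3 were higher and 3 lower at 6 h, and 5 were higher and 4 lower at 24 h. The shares over all tested genes were 25.0% higher and 27.8% lower at 6 h, and 27.5% and 28.6% at 24 h. *FLCN* rose by 0.65 at each time (adjusted p = 1.60e-06 and 1.16e-06). *RRAGD* rose by 1.15 at 24 h (adjusted p = 0.000147), where its 6 h value was -0.13 (adjusted p = 0.614). *RRAGC* rose by 0.78 at 24 h (adjusted p = 8.96e-07), where its 6 h value was 0.057 (adjusted p = 0.588). For both Rag genes the responses differed between the times, by 1.28 (adjusted p = 0.00364) and 0.72 (adjusted p = 0.000347).

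The target of REDD1, the TSC complex with RHEB, moved little: of 3 tested genes *RHEB* was 0.22 and *TSC2* -0.19 at 6 h (adjusted p = 0.00476 and 0.0257), and at 24 h the 3 values lay between -0.098 and 0.094 with adjusted p of 0.179 or more. Among the subunits and assembly factors of the mTOR complexes, 1 of 11 was higher and 4 lower at 6 h, and 1 was higher and 7 lower at 24 h. Over all tested genes 25.0% were higher and 27.8% lower at 6 h, and 27.5% and 28.6% at 24 h. *RICTOR* was the higher gene at both times (0.59 and 0.31), *PRR5L* (-1.11 and -0.45) and *MAPKAP1* (-0.75 and -0.17) fell, and *TELO2* was lowest at 24 h (-0.55).

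Downstream of mTORC1, 3 of 12 tested effector genes were higher and 4 lower at 6 h, and 2 were higher and 5 lower at 24 h. Beside them, 25.0% of all tested genes were higher and 27.8% lower at 6 h, and 27.5% and 28.6% at 24 h. *ULK1*, the autophagy kinase that mTORC1 inhibits, went from 23.8 ± 3.46 to 79.1 ± 6.82 CPM at 6 h (1.73, adjusted p = 2.26e-09) and was 32.3 ± 2.71 and 37.9 ± 3.67 CPM at 24 h (0.23, adjusted p = 0.0713). The responses of *ULK1* differed by -1.50 (adjusted p = 3.66e-06). *PDCD4*, a repressor of the helicase eIF4A, rose by 1.59 and 0.95. *EIF4EBP2*, the paralog of *EIF4EBP1*, fell from 140 ± 5.13 to 88.6 ± 3.22 CPM at 6 h (-0.66, adjusted p = 2.64e-07) and from 135 ± 5.96 to 101 ± 6.31 CPM at 24 h (-0.42, adjusted p = 2.55e-05), in the opposite direction to *EIF4EBP1*. *EEF2K*, the kinase of elongation factor eEF2, fell by 0.99 and 0.27 on the log2 scale.

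Of 7 tested genes of AMPK and its activator LKB1, 4 were higher and 1 lower at each time. *PRKAB2* rose by 1.21 and 1.34 (adjusted p = 4.81e-08 and 1.08e-08), and the LKB1 gene *STK11* fell by 0.44 and 0.30. Among 12 partners and substrates of the Tribbles proteins, 2 were higher and 5 lower at 6 h, and 6 were higher and 4 lower at 24 h. Both lists stand beside 25.0% of all tested genes higher and 27.8% lower at 6 h, and 27.5% and 28.6% at 24 h. *CEBPB* went from 46.8 ± 1.72 to 266 ± 16.4 CPM at 6 h (2.51, adjusted p = 3.04e-12) and from 41.8 ± 4.40 to 203 ± 8.86 CPM at 24 h (2.28, adjusted p = 6.70e-12). *CEBPA*, at 2.33 to 8.54 CPM in group means, fell by 0.51 at 6 h and rose by 0.86 at 24 h, a difference of 1.37 (adjusted p = 4.91e-05). *AKT1*, whose product TRIB3 binds, fell by 0.61 and 0.77 (adjusted p = 4.54e-06 and 2.82e-07).

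As a yardstick, 19 tested genes of a list of 20 ATF4 targets had medians of 1.62 at 6 h and 1.52 at 24 h, with 16 higher and 1 lower at each time. The medians over all tested genes were -0.046 and -0.0033. Of all tested genes 25.0% were higher and 27.8% lower at 6 h, and 27.5% and 28.6% at 24 h. The largest rise at 6 h was that of *CTH* (4.26), beside 4.40 for *SESN2* and 4.18 for *TRIB3*, and the gene that fell was *ATF5* (-1.04 and -0.89). This list holds none of the 10 genes.

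**Figure D5:**
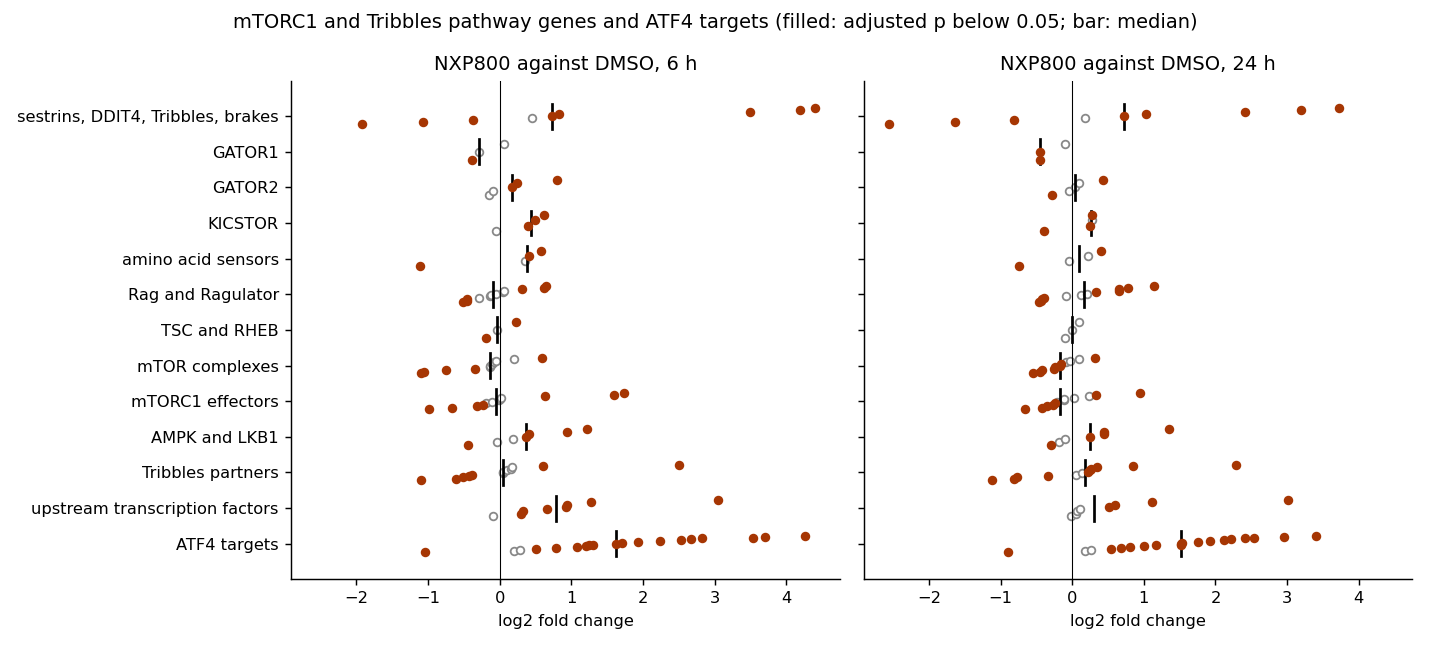
Log2 fold change of NXP800 against DMSO at 6 h (left) and 24 h (right) for the 9 tested genes of the sestrin, DDIT4, Tribbles and brake group, the 11 pathway lists and the list of ATF4 targets. Each point is a gene, filled where its adjusted p was below 0.05, and black bars are medians. The medians of the pathway lists lie between -0.29 and 0.44 at 6 h, apart from 0.79 for the upstream factors, and between -0.44 and 0.31 at 24 h, and the ATF4 targets centre at 1.62 and 1.52.

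The genes most like each of the 10 over the 12 libraries were found by Pearson's r of log2 CPM among 11885 genes whose log2 CPM averaged at least 1. This is a description, since the libraries share groups. *SESN2* was nearest to *CAMTA2* (r = 0.995), *LINC00662* and *KDM6B*, and *DDIT4* to *EIF1* (0.992), *SESN2* (0.990) and *DDR2* (0.990). *TRIB3* was nearest to *POLR3C* (0.996), *CHAC1* (0.996) and *ULBP1* (0.994), *TRIB1* to *SOCS2* (0.993), *JMY* and *ENOX2*, and *TRIB2* to *LRATD2* (0.992), *ITGB1BP1* and *TGFBR3*. *EIF4EBP1* was nearest to *MTHFD1L* (0.979), *ROBO4* and *RPS6KA2*, and *SESN1* to *SSR1* (0.946), *GLIPR2* and *SSR3*. *SESN3* and *DEPTOR* were too low for this, with a mean log2 CPM under 1.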

How the data were processed

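PolyA RNA of MNNG/HOS cells was sequenced from strand-specific libraries. Per the submitters' processing notes the tools were fastp 0.20.1, STAR 2.7.5a and HTSeq 0.12.4 with GRCh38.p14/hg38. The authors deposited raw counts per RefSeq gene, without normalization, and the strand setting was not given in the sources used here. Entries that name no gene (2.73 to 8.14% of reads on no annotated gene, 1.86 to 3.37% aligned to several places) were left out. Groups follow the labels, and the dose follows the study's methods. The study's statistics section describes its results in general as coming from independent experiments, its RNA-seq methods speak of replicates, and the labels say no more, so p-values measure the spread between these libraries. Replicates differed by more than sampling noise (chi-square over degrees of freedom 7.95 to 28.6), and none was a duplicate.

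Counts were scaled by TMM and filtered by filterByExpr, and all 12 libraries entered 1 fit of the 4 groups in edgeR 4.0.16 (R 4.3.3), with Benjamini-Hochberg adjustment over all 15979 tested genes. The threshold was an adjusted p below 0.05. Exon lengths came from GENCODE, gene positions and sequences from RefSeq on GRCh38.p14. Paralog ratios used counts plus 0.5. DESeq2 1.42.0 was an alternative. The procedures were tested on simulated data. Replicate numbers pair the libraries of a time point: deviations from the group means correlated across genes, between treated and control libraries, with r of 0.349 to 0.526 where the number was shared and -0.419 to 0.0225 where it was not, and the numbers in the labels are the only source of this pairing.

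The 10 genes and all lists were chosen with earlier results of these data known. Named genes were the 10, the factors known to act on them, up to 2 called rises and 2 called falls of each list at each time (mean log2 CPM of at least 1), and the 3 genes most like each. Of the names this rule gives, a part is printed, and 1 of the factors is not reported here. The window of 2000 bases, the stricter motif and the comparison of DMSO 24 h replicate 1 with the other DMSO 24 h libraries were added after the data were seen.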

Additional observations from a re-analysis of the deposited data

Results flagged for a closer look

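A response that differed between 6 h and 24 h by a test of the difference itself (edgeR's quasi-likelihood test, adjusted p below 0.05) was found for 5 genes. The log2 response at 24 h minus that at 6 h was -1.21 for *SESN2*, -1.08 for *DDIT4*, -1.26 for *SESN3*, -0.63 for *TRIB2* and 0.54 for *SESN1*. For *SESN2* and *DDIT4* the rise was smaller at 24 h, for *TRIB2* the fall was larger, and *SESN3* and *SESN1* changed sign, each passing the threshold at 1 time only. The share of reads on no annotated gene also differs between the times, and time and library set cannot be told apart. DMSO 24 h replicate 1 was the highest control for *SESN2* and *DDIT4*, and without it the values were -0.92 and -0.77. For *SESN1* the difference without that library was 0.50 (adjusted p = 0.0625).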

How the results depend on the processing

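Over 20 alternatives the number of the 10 genes called was 7 to 9 at 6 h and 8 at 24 h, and over 19 alternatives it was 4 to 6 for the difference between the times. Of 504 recomputed log2 fold changes 479 kept their direction and their side of the threshold, and all 25 others belong to 5 values. *SESN1* at 6 h and in the difference lost its call when certain libraries were left out, and *SESN3* at 6 h gained one, as given beside those values. The *TRIB3* difference also passed with no filter on low counts (adjusted p = 0.00110) and in DESeq2's Wald test (0.0402). The *EIF4EBP1* difference, which never passed, changed sign with library size only (0.058) and with no filter (0.0041), and it ranged from -0.084 to 0.12 when each library was left out. The causes were not tested. With the replicate number as a block, *SESN3* at 6 h (0.45) and the *TRIB3* difference (-0.44) passed and no other call of the 10 genes changed, and the pathway lists had 60 called genes at 6 h and 58 at 24 h, against 49 and 52. The paralog contrasts kept their side of the threshold under all 14 alternatives each. For the 5 called pairs the adjusted p was up to 0.0375, the floor when signs were flipped over the 6 pairs of the replicate block. With the window of 2000 bases on each side, 3 genes held TGATGNAA where none did in the shorter window. Among the 10 genes, low counts limit *DDIT4L*, *DEPTOR* and *SESN3*.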
